A study of Mus musculus with 9 samples.

Results

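Neurotrophins and the GDNF family ligands are secreted survival and growth factors that neurons and glia read through small sets of receptors. The 8 genes described here are the Trk receptors Ntrk2 (TrkB) and Ntrk3 (TrkC), the shared neurotrophin receptor Ngfr (p75), the receptor tyrosine kinase Ret, its GPI-anchored co-receptors Gfra1, Gfra2 and Gfra3, and the neurotrophin Bdnf. They were picked by name from 25085 genes, as the sums of the read counts of each gene's RefSeq transcripts. The counts could measure 7 of the 8, and Ngfr, Ret, Gfra3 and Bdnf were higher in DRG cultures than in either glial culture. Counted Ntrk2 reads, which leave out those of its kinase coding exons, were lower in DRG than in either glial culture. In both glia they fell mostly on the truncated form. Ntrk3 was highest in OPC, where it was mostly truncated. Reads of its kinase form were highest in DRG, though their difference from OPC missed the threshold.

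Poly(A) RNA was sequenced from 9 purified primary mouse cultures, in 3 biological replicate experiments for each of 3 cell types. DRG are neurons of embryonic (E13.5) dorsal root ganglia after about 2 weeks in culture. OPC, oligodendrocyte progenitor cells, were taken from cortex at P6 to P9 and grown for 6 to 7 days. Astrocytes were taken from cortex at P1 to P3 and grown for about 21 days until confluent; either sex was used for both glial types. No genotype, strain or treatment is given in the labels, and the growth factors in the media are not given in the sources used here, so the ligands to which these receptors were exposed in culture are not known. Donor age, time in culture and, against DRG, tissue of origin differ with cell type and cannot be told apart from it.

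BDNF acts on TrkB, and neurotrophin-3 acts mainly on TrkC. The full-length Trk receptors carry an intracellular tyrosine kinase, and splicing also gives truncated receptors that keep the ligand-binding part and lack the kinase. p75 binds all neurotrophins and also their uncleaved precursors. Ret has no high-affinity ligand of its own: GDNF binds it through GFRα1, neurturin through GFRα2 and artemin through GFRα3. In dorsal root ganglia these receptors are known for marking different kinds of sensory neuron, and in the brain astrocytes are known for truncated TrkB.

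Assigned counts were 30710093 to 53594210 per library, and 15894 to 17068 genes had at least 1 count. The defining marker of each culture was highest there, though other listed markers were not all so. Tubb3, a neuronal tubulin, was at 5459, 6227 and 7275 CPM in DRG, against 67.9 to 127 CPM in OPC and 8.39 to 17.9 CPM in astrocytes. Pdgfra, the OPC growth factor receptor, was at 18.7 to 36.4 CPM in OPC and at 0.857 CPM or less in every other library. Gfap, an astrocyte filament, was at 2393 to 2954 CPM in astrocytes and at 2.50 CPM or less elsewhere. S100b, listed for astrocytes, averaged 708 CPM in DRG and 50.3 CPM in astrocytes, and Map2, listed for neurons, was lowest in DRG at 0.463 CPM. The Map2 value covers only reads particular to 1 of its 2 transcripts, so it does not give the level of the gene. The 8 OPC markers summed to 5101 to 6860 CPM in OPC and to 341, 1203 and 1311 CPM in astrocytes, where Olig1 reached 1003 CPM and C1ql1, at 67.1 CPM on average, was as high as in OPC (61.6 CPM). Astrocytes replicate 1 stood apart: its 10 microglia markers summed to 2811 CPM, against 491 and 457 CPM in replicates 2 and 3, and its 10 fibroblast and mural markers to 1154 CPM, against 8258 and 9747 CPM. OPC replicate 3 had the highest microglia sum among OPC, 209.7 CPM against 17.7 and 56.1 CPM. In the DRG libraries, 9 Schwann and satellite glia markers summed to 24.7, 14.2 and 55.2 CPM and the 10 fibroblast and mural markers to 540, 247 and 496 CPM. CPM are read counts scaled by library size and TMM factors. In bulk cultures fewer cells of a type and less RNA per cell cannot be told apart.

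Because reads were counted per transcript and a read shared by transcripts of 1 gene was set aside as ambiguous (22.0 to 24.7% of all reads), the sequence that separates the forms decides what was counted. For Ntrk2 and Ntrk3 this is the place where the truncated and the kinase forms part, shown here as coding sequence 5′ to 3′ from GENCODE vM21. Lower case gives the last shared bases and any stop codon, and capitals give bases from exons that the other form lacks. The Ntrk2 forms share coding sequence for 464 amino acids and part before chr13:58932023-58932057 (truncated, + strand) and chr13:58985802-58985921 (kinase form, shown in part), in GRCm38.
Ntrk2 truncated: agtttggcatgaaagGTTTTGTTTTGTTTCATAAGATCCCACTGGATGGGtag
Ntrk2 kinase form: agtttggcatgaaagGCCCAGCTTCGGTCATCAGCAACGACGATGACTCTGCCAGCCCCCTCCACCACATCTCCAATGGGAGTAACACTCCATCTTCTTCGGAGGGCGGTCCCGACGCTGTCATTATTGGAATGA
The Ntrk3 forms share coding sequence for 528 amino acids and part at chr7:78304307-78304426 (truncated) and chr7:78260295-78260414 (kinase form), both on the minus strand and shown in part.
Ntrk3 truncated: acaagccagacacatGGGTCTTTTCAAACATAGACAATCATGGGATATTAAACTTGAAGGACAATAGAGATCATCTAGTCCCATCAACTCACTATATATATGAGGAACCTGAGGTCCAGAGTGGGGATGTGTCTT
Ntrk3 kinase form: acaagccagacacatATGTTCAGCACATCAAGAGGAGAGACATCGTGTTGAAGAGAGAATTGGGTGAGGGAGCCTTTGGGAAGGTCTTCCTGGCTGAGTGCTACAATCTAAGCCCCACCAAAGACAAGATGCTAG
The truncated Ntrk2 ends after 11 further whole codons at a stop codon, giving 476 amino acids against 821 for the kinase form. The truncated Ntrk3 has 612 amino acids against 825 for its kinase form.

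Ntrk2, on chromosome 13 (58806472 to 59133970), had few counted reads in DRG and many in both glia. Reads shared by its transcripts, among them those of the kinase coding exons, were set aside and are not in its gene sum. Its gene sum was 1.12, 0.379 and 1.47 CPM in DRG, 441, 249.3 and 236 CPM in OPC, and 1476, 552 and 717 CPM in astrocytes. The 3 cultures did not overlap, and the lowest glial library was 160 times the highest DRG library. The log2 fold change was -9.87 ± 0.72 (SE) for DRG against astrocytes (edgeR quasi-likelihood F-test, adjusted p = 7.07e-06, n = 3 each) and -8.30 ± 0.68 for DRG against OPC (edgeR adjusted p = 1.52e-05). In OPC against astrocytes it was -1.57 ± 0.50 (edgeR adjusted p = 0.0254). That last call was lost without Astrocytes replicate 1 (log2 fold change -1.04, edgeR adjusted p = 0.0825), the library with the highest Ntrk2 and the highest microglia markers, whose part in the result was not tested. It was also lost without OPC replicate 2 (edgeR adjusted p = 0.0894), without OPC replicate 3 (0.0612) and without both Astrocytes replicate 1 and OPC replicate 3 (0.117); without that pair the log2 fold change of DRG against astrocytes was -9.26.

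**Figure D1:**
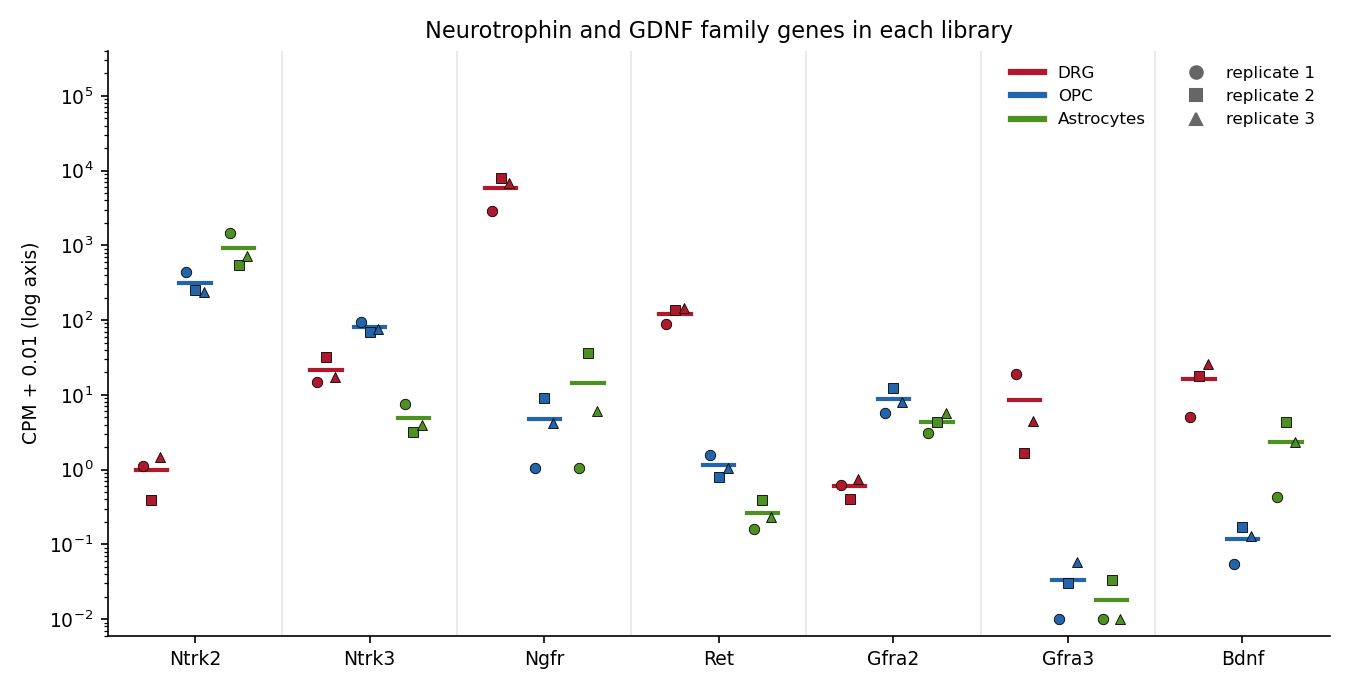
Level of each gene in each library, as CPM + 0.01 on a log axis; horizontal bars are the means of 3 libraries per culture, and symbols give the replicate. Ngfr, Ret, Gfra3 and Bdnf sit highest in DRG, Ntrk2 and Gfra2 lowest in DRG, and Ntrk3 is highest in OPC; Gfra1 is not drawn because it had 1 read in all 9 libraries.

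Nearly all accession-specific Ntrk2 reads came from the truncated form. The truncated transcript (NM_008745) was at 1.12, 0.274 and 1.45 CPM in DRG, 435, 242 and 228 CPM in OPC, and 1458, 539 and 698 CPM in astrocytes. The kinase transcript (NM_001025074) was at 0, 0.105 and 0.0258 CPM in DRG, 5.68, 7.02 and 8.37 CPM in OPC, and 18.4, 13.0 and 18.9 CPM in astrocytes. The kinase coding exons are also in another transcript (NM_001282961), which had 0 reads in every library, so their reads were ambiguous and the kinase level rests on untranslated bases alone. That other transcript has only 70 bases of its own in GENCODE, so its level, in DRG as in the glia, cannot be told from the counts. Per kilobase of sequence particular to each form in GENCODE, the truncated form averaged 275 ± 106 CPM and the kinase form 1.63 ± 0.31 CPM in OPC, and 818 ± 447 and 3.88 ± 0.76 CPM in astrocytes (SD, n = 3).

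The kinase form took 1.29, 2.82 and 3.55% of Ntrk2 accession-specific reads in OPC and 1.25, 2.35 and 2.64% in astrocytes. Wilson 95% intervals of these shares, which cover counting error only, ran from 1.14 to 3.93% in OPC and from 1.17 to 2.84% in astrocytes. In DRG the kinase form had 0 of 33, 5 of 18 and 1 of 57 reads, too few to read a share. Isoform usage of Ntrk2 was not called in any comparison (edgeR diffSpliceDGE, adjusted p = 0.726 for DRG against astrocytes, 0.938 for DRG against OPC and 1 for OPC against astrocytes). Such a test asks whether forms of 1 gene change by different folds.

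Ntrk3, on chromosome 7 (78179986 to 78581034), was highest in OPC and lowest in astrocytes. Its gene sum was 14.7, 32.1 and 17.3 CPM in DRG, 93.9, 69.5 and 75.2 CPM in OPC, and 7.47, 3.16 and 3.90 CPM in astrocytes, with no overlap between cultures. DRG were below OPC (log2 fold change -1.90 ± 0.39, edgeR adjusted p = 0.00259) and above astrocytes (2.14 ± 0.40, edgeR adjusted p = 0.00144). OPC exceeded astrocytes by 4.04 ± 0.43 on the log2 scale (edgeR adjusted p = 0.000107).

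The forms of Ntrk3 did not move together. The kinase form (NM_008746) was at 10.02, 24.3 and 12.9 CPM in DRG, 8.29, 6.41 and 6.09 CPM in OPC, and 0.696, 0.119 and 0.332 CPM in astrocytes. The truncated form (NM_182809) was at 4.70, 7.73 and 4.44 CPM in DRG, 85.6, 63.1 and 69.1 CPM in OPC, and 6.77, 3.04 and 3.57 CPM in astrocytes. So every DRG library was above every other library for the kinase form, whereas DRG and astrocytes overlapped for the truncated form and both were far below OPC.

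Against astrocytes, DRG were higher in the kinase form (log2 fold change 5.33 ± 0.65, edgeR adjusted p = 0.000119 over accessions), while the truncated form gave 0.33 ± 0.35 (edgeR adjusted p = 0.438). Of the 16010 accessions tested, 60% were called in DRG against astrocytes, 59.1% in DRG against OPC and 50.9% in OPC against astrocytes. The gene-level difference between DRG and astrocytes was therefore carried by the kinase form: with only the accession with the most reads, the truncated one, the Ntrk3 log2 fold change was 0.33 (edgeR adjusted p = 0.432). Against OPC, DRG were lower in the truncated form (-3.69 ± 0.38, edgeR adjusted p = 5.03e-05), and the kinase form gave 1.19 ± 0.54, short of the threshold (edgeR adjusted p = 0.0829). The kinase form passed in that comparison when Astrocytes replicate 1 was left out of the fit (edgeR adjusted p = 0.031), without Astrocytes replicate 2 (0.038) and without Astrocytes replicate 1 together with OPC replicate 3 (0.042). OPC exceeded astrocytes in both forms, by 4.14 ± 0.62 in the kinase form (edgeR adjusted p = 0.000613) and by 4.02 ± 0.39 in the truncated form (edgeR adjusted p = 6.69e-05).

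As a share of Ntrk3 accession-specific reads, the kinase form took 68.0, 75.9 and 74.4% in DRG, 8.83, 9.22 and 8.10% in OPC, and 9.32, 3.76 and 8.51% in astrocytes. No DRG interval reached below 63.5%, and no glial interval above 14.3% (Wilson 95%). Isoform usage was called for DRG against astrocytes (edgeR diffSpliceDGE, adjusted p = 0.000426) and for DRG against OPC (adjusted p = 0.000442), and not for OPC against astrocytes (adjusted p = 1). The shares themselves gave an exact two-sided permutation p of 0.1 for each DRG comparison, the smallest that 3 against 3 libraries allow (0.18 adjusted over 18 shares tested). Genes with forms to test were called at 25.6% in DRG against astrocytes, 24.8% in DRG against OPC and 13.9% in OPC against astrocytes, of 1068 genes. These are shares of reads, not of molecules, since the sequence particular to the kinase form is 17919 bases in GENCODE and that of the truncated form 2193 bases. Per kilobase of that sequence the order in DRG turned: the truncated form was at 2.15, 3.52 and 2.03 CPM and the kinase form at 0.559, 1.36 and 0.719 CPM in DRG replicates 1 to 3. In OPC the truncated form led on this scale too, at 33.1 ± 5.3 CPM against 0.387 ± 0.066 CPM for the kinase form (SD, n = 3). The 3′ end of the kinase transcript lies elsewhere in the RefSeq gene, so which form was the more abundant in DRG cannot be told from the counts. The comparisons of 1 form between cultures do not depend on its length.

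**Figure D2:**
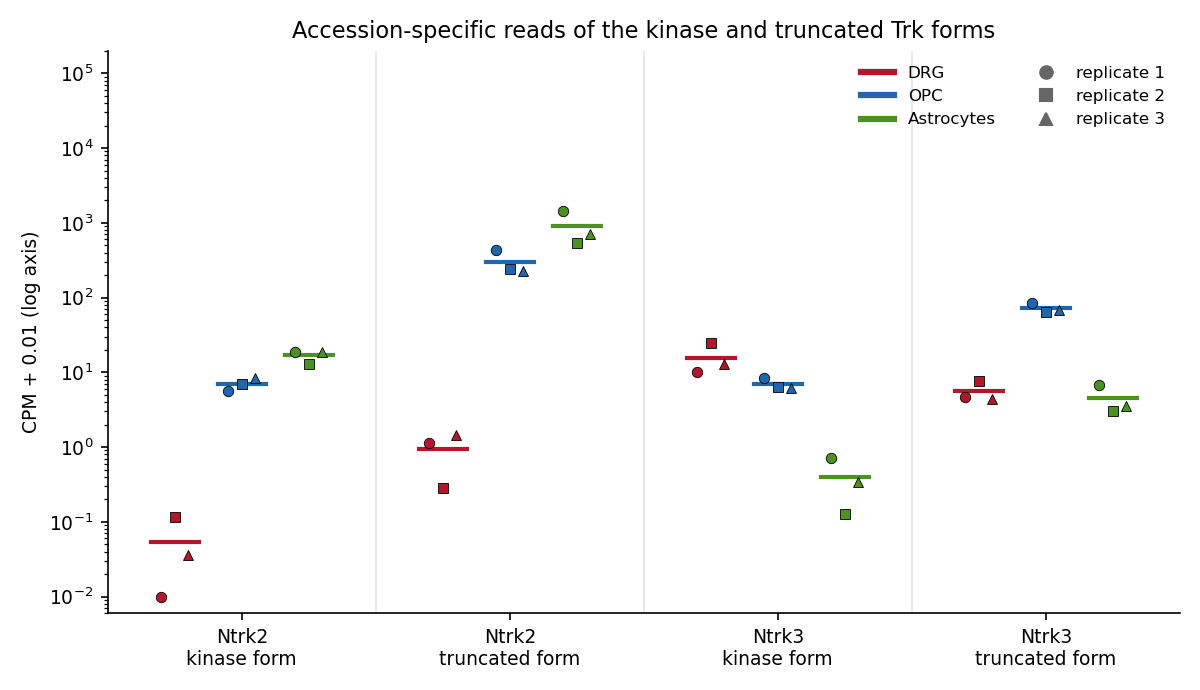
Accession-specific reads of the kinase and truncated forms of Ntrk2 and Ntrk3 in each library, as CPM + 0.01 on a log axis; bars are means of 3 libraries. For Ntrk3 the DRG libraries lead the kinase form and the OPC libraries lead the truncated form. For Ntrk2 the counted reads of both forms are lowest in DRG, those of the kinase form covering only untranslated bases of a single transcript.

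Ngfr, on chromosome 11 (95568818 to 95587698) and counted over a single transcript, was the most abundant of the 7 measured genes in DRG per kilobase. It was at 2895, 7945 and 6757 CPM in DRG, 1.05, 9.04 and 4.16 CPM in OPC, and 1.05, 36.2 and 6.11 CPM in astrocytes. The lowest DRG library was 80 times the highest glial library. Per kilobase of transcript, DRG averaged 1702 ± 766 CPM (SD, n = 3). The log2 fold change was 8.67 ± 1.48 for DRG against astrocytes (edgeR adjusted p = 0.00089) and 10.27 ± 1.58 for DRG against OPC (edgeR adjusted p = 0.000481).

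The fold of Ngfr against the glia depended on single glial libraries. Without Astrocytes replicate 2 the log2 fold change of DRG against astrocytes was 10.69 (edgeR adjusted p = 0.000426), and without OPC replicate 2 that of DRG against OPC was 11.13 (edgeR adjusted p = 0.00227). OPC and astrocytes overlapped (log2 fold change -1.60 ± 1.10, edgeR adjusted p = 0.252), and the direction turned to 0.43 without Astrocytes replicate 2. Schwann cells and fibroblasts are other known sources of p75. In DRG, the Schwann and satellite list summed to 24.7, 14.2 and 55.2 CPM, with Foxd3, a factor of the neural crest, at 1.01 to 3.00 CPM and Ncmap at 0 CPM in 2 of 3 libraries. Their part in the Ngfr level was not tested.

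Ret, on chromosome 6 (118151748 to 118197744), had a gene sum of 87.3, 134 and 145 CPM in DRG, 1.57, 0.773 and 1.04 CPM in OPC, and 0.151, 0.380 and 0.221 CPM in astrocytes. The cultures did not overlap, and glial Ret rested on 38 to 70 reads per library in OPC and 8 to 16 in astrocytes. The log2 fold change was 8.93 ± 0.48 for DRG against astrocytes (edgeR adjusted p = 1.87e-06) and 6.76 ± 0.43 for DRG against OPC (edgeR adjusted p = 5.04e-06). OPC exceeded astrocytes by 2.17 ± 0.41 (edgeR adjusted p = 0.00215). Ret protein exists with a short and a long tail. All Ret reads were assigned to NM_001080780 and none to NM_009050, although GENCODE gives NM_009050 2266 bases of its own, so which tail these reads came from cannot be told from the counts.

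The co-receptors of Ret split. Gfra2, the neurturin co-receptor on chromosome 14 (70890107 to 70979840), was low in DRG: 0.609, 0.40 and 0.749 CPM in DRG, 5.77, 12.5 and 7.92 CPM in OPC, and 3.03, 4.32 and 5.75 CPM in astrocytes. Every DRG library was below every glial library. The log2 fold change was -2.90 ± 0.44 for DRG against astrocytes (edgeR adjusted p = 0.000463) and -3.90 ± 0.46 for DRG against OPC (edgeR adjusted p = 0.000103). OPC and astrocytes did not overlap either, but the nearest libraries were at 5.77 CPM in OPC and 5.75 CPM in astrocytes, and the log2 fold change of 1.00 ± 0.40 missed the threshold (edgeR adjusted p = 0.0636). It passed with DESeq2 (0.90, adjusted p = 0.0493) and without OPC replicate 1 (1.24, edgeR adjusted p = 0.0386).

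Gfra3, the artemin co-receptor on chromosome 18, was found almost only in DRG. It had 566, 79 and 170 reads in DRG, 0, 1 and 2 reads in OPC, and 0, 1 and 0 reads in astrocytes, or 19.2, 1.66 and 4.39 CPM in DRG. The ratio of depth-scaled counts was 925 for DRG against astrocytes (95% counting interval 166 to 36590) and 318 for DRG against OPC (108 to 1544). Gfra3 entered the test only through its DRG counts, so a difference was built into its selection and its p-values are not given. OPC, with 3 reads, and astrocytes, with 1 read, could not be compared at this depth.

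Replicate 1 of DRG held most of the Gfra3 reads. Its CPM was 6.33 times the mean of replicates 2 and 3, whereas the same ratio was 0.394 for Ngfr, 0.626 for Ret, 0.596 for Ntrk3 and 0.233 for Bdnf. Its fitted log2 fold change, which depends on the prior count here, was 9.63 against astrocytes with all libraries, 8.18 without DRG replicate 1 and 11.48 without Astrocytes replicate 2. Against OPC it was 8.38, with 6.91 without DRG replicate 1 and 9.50 without OPC replicate 3. In DRG replicate 1, pan-neuronal markers summed to 50699 CPM, against 25856 and 29333 CPM in replicates 2 and 3, and sensory neuron markers to 5235, 5740 and 5774 CPM in replicates 1 to 3. The pan-neuronal difference lay mostly in the neurofilament genes Nefm (21369, 5997 and 6875 CPM in replicates 1 to 3) and Nefl (15666, 7381 and 8486 CPM). Other markers of that list were mixed, with Tubb3 at 5459, 6227 and 7275 CPM and Stmn2 at 5779, 4376 and 4963 CPM. Whether these differences bear on Gfra3 was not tested.

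Gfra1, the GDNF co-receptor on chromosome 19 (58235581 to 58455946), could not be measured. Its 3 transcripts have no base of their own in GENCODE, and they took 1 read in all 9 libraries together, in Astrocytes replicate 2. That says nothing about its level, since every read shared by its transcripts was set aside.

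Bdnf, on chromosome 2 (109674700 to 109727043), was the only ligand among the 8 genes. Its gene sum was 5.08, 18.0 and 25.5 CPM in DRG, 0.0447, 0.163 and 0.120 CPM in OPC, and 0.414, 4.30 and 2.35 CPM in astrocytes. The cultures did not overlap, and OPC rested on 2, 8 and 5 reads. The log2 fold change was 2.79 ± 0.84 for DRG against astrocytes (edgeR adjusted p = 0.0172), 7.17 ± 1.07 for DRG against OPC (edgeR adjusted p = 0.000409) and -4.38 ± 0.98 for OPC against astrocytes (edgeR adjusted p = 0.0051).

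Single libraries decided the call of DRG against astrocytes. It was lost without Astrocytes replicate 3 (edgeR adjusted p = 0.0524) and without DRG replicate 3 (0.0585), and without Astrocytes replicate 2 the log2 fold change was 3.56. Without Astrocytes replicate 2 that of OPC against astrocytes was -3.60 (edgeR adjusted p = 0.0136), and without Astrocytes replicate 1 and OPC replicate 3 together it was -5.09. Astrocytes replicate 1, the lowest of its group for Bdnf, was also the lowest for fibroblast and mural markers (1154 CPM, against 8258 and 9747 CPM in replicates 2 and 3). Their part in the result was not tested.

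Bdnf is transcribed from several promoters, each with its own 5′ exon spliced to 1 shared coding exon, so only reads on the 5′ exons were counted to an accession. Of 11 accessions 9 had reads, and 4 passed the filter, those that begin with exon I, II, IV and VI in the usual numbering. The promoters of the exon I and exon IV transcripts, both read mostly in DRG, are shown from 250 bases before to 50 after the start (RefSeq, GRCm38.p6, + strand). They lie at chr2:109674450-109674749 and chr2:109692186-109692485. Capitals mark a match to TGACG or its other strand CGTCA, the core of the cAMP response element through which CREB acts on activity-regulated Bdnf transcription.
Bdnf exon I promoter: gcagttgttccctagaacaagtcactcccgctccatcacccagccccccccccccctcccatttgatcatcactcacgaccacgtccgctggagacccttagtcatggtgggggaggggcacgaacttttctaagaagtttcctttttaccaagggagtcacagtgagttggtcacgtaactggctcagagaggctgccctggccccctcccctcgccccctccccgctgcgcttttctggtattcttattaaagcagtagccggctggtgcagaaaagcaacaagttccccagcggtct
Bdnf exon IV promoter: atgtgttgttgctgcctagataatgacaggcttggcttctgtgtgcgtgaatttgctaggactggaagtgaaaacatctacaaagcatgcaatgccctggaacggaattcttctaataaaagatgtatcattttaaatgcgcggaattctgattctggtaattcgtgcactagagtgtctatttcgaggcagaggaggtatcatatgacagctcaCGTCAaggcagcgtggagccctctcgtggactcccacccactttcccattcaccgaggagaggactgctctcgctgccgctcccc
The exon IV window held 1 match, at 35 bases before the start, and the exon I window none. Of 32851 RefSeq promoter windows of that length, 20.8% held this core and 1.79% the full TGACGTCA, so a match is common and is a description of the letters only.

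Reads in DRG and in astrocytes fell on different exons. The transcripts of exons I, II and IV passed the filter only through their DRG counts, so a difference was built into their selection and their values are a description. The exon I transcript (NM_007540) was at 1.15, 7.29 and 12.9 CPM in DRG, at 0.0722 CPM or less in OPC, and at 0, 0.190 and 0 CPM in astrocytes. The exon VI transcript (NM_001048142) was at 2.50, 5.66 and 5.58 CPM in DRG, 0, 0.102 and 0.0481 CPM in OPC, and 0.414, 3.99 and 2.27 CPM in astrocytes. Only for exon VI did DRG and astrocytes overlap.

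The exon II transcript (NM_001048139) was at 0.406, 1.85 and 3.12 CPM in DRG and had 0 reads in OPC and 2 reads in astrocytes. The exon IV transcript (NM_001048141) was at 0.981, 3.01 and 3.69 CPM in DRG and had 1 read in OPC and 3 in astrocytes. For exon I the log2 fold change of DRG against astrocytes was 6.77, resting on 8 astrocyte reads, all in replicate 2. The ratio of depth-scaled counts was 126 for exon II (95% counting interval 34.3 to 1042) and 119 for exon IV (40.4 to 581). For exon VI the log2 fold change was 1.05, with an edgeR adjusted p of 0.278. OPC were below astrocytes in exon VI (log2 fold change -5.36, edgeR adjusted p = 0.00247).

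Exon VI took 49.3, 31.5 and 21.9% of Bdnf accession-specific reads in DRG, against 100, 92.8 and 96.5% in astrocytes. Exon I took 22.7, 40.5 and 50.6% in DRG, against 0, 4.42 and 0% in astrocytes. These are shares of reads, not of molecules. The sequence particular to the transcripts of exons I, II, IV and VI is 640, 83, 339 and 347 bases in GENCODE. Per kilobase of it, DRG averaged 11.1 ± 9.2, 21.6 ± 16.4, 7.6 ± 4.2 and 13.2 ± 5.2 CPM (SD, n = 3). Which exon was the most used in DRG therefore cannot be told from the read shares. The astrocyte shares rest on 22, 181 and 85 reads, and the Wilson 95% intervals of the exon VI share ran from 85.1 to 100% there and from 19.4 to 57.3% in DRG. Isoform usage was called for DRG against astrocytes (edgeR diffSpliceDGE, adjusted p = 0.0187), over 4 forms of which 3 were kept through DRG alone. That call was lost without DRG replicate 2 (edgeR adjusted p = 0.0592), without DRG replicate 3 (0.0591) and without Astrocytes replicate 3 (0.127). It was not called for DRG against OPC (edgeR adjusted p = 1) or for OPC against astrocytes (edgeR adjusted p = 0.17); OPC had 15 reads in all.

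**Figure D3:**
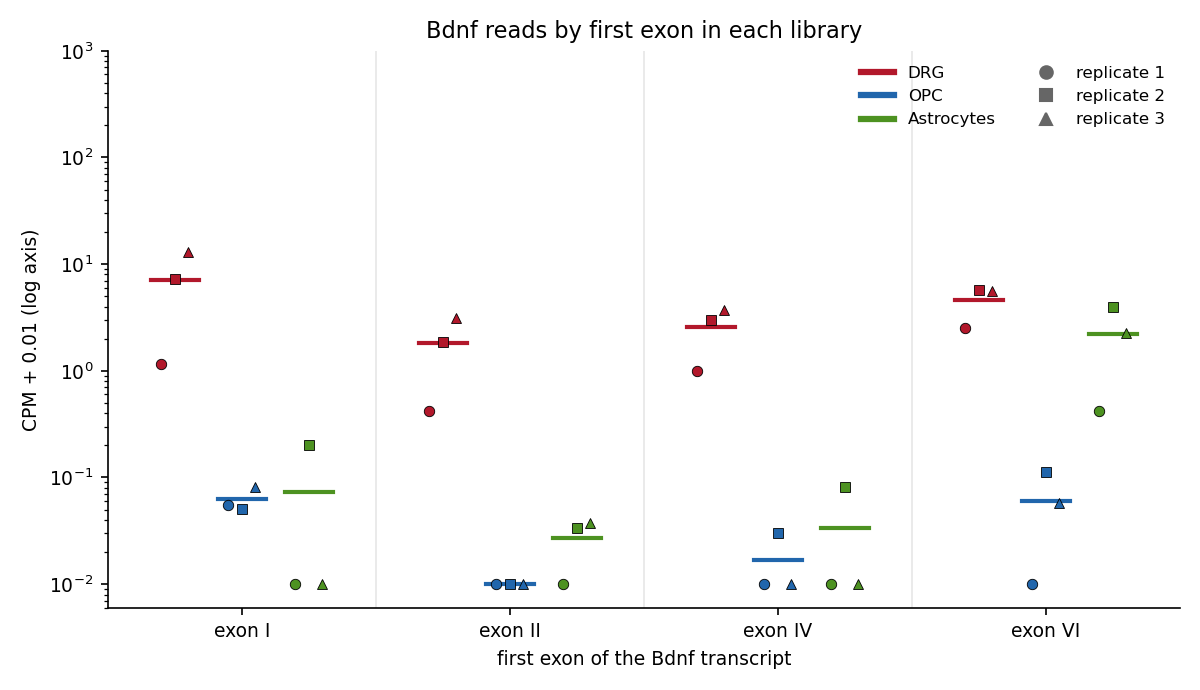
Bdnf reads by first exon in each library, as CPM + 0.01 on a log axis; bars are means of 3 libraries. DRG libraries are above astrocytes for exons I, II and IV, while for exon VI the DRG libraries (2.50 to 5.66 CPM) overlap the astrocytes (0.414 to 3.99 CPM).

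Across the 7 genes tested, all 7 were called in DRG against astrocytes (5 higher, 2 lower in DRG), where 60.2% of 14850 genes were called (27.4% higher, 32.7% lower). In DRG against OPC all 7 were called as well (4 higher, 3 lower), where 59.5% of genes were (28.4% higher, 31.1% lower). In OPC against astrocytes 4 were called, Ntrk3 and Ret higher and Ntrk2 and Bdnf lower in OPC, where 51.8% of genes were (26.3% higher, 25.5% lower). The median log2 fold change of the 7 genes was 2.79, 6.76 and 1.00 in these comparisons, beside -0.13, -0.08 and 0.09 over all genes. With backgrounds this high, and with Gfra3 kept through DRG alone, the counts describe the genes and are not read further. The comparisons share libraries, so they are not independent of each other.

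**Figure D4:**
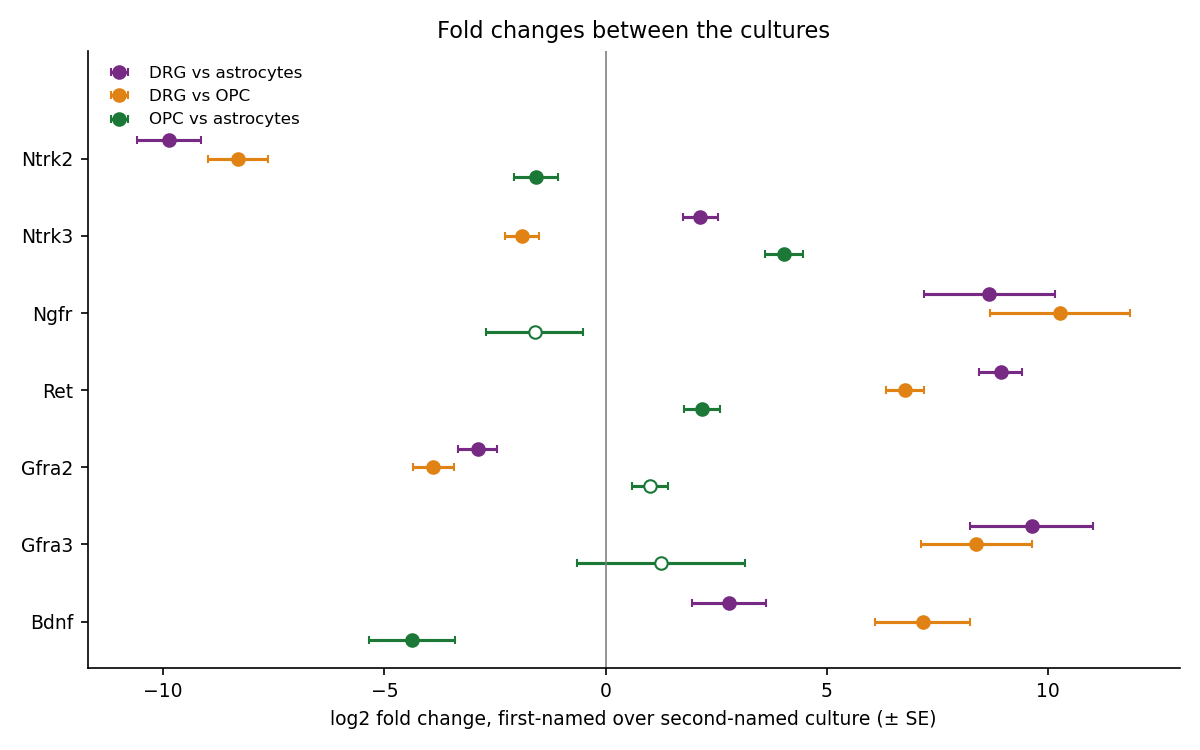
log2 fold change ± SE of each gene in the 3 comparisons, first-named over second-named culture; filled points passed an edgeR adjusted p of 0.05 and open points did not. Ntrk2 and Gfra2 lie below 0 and Ngfr, Ret, Gfra3 and Bdnf above 0 in both DRG comparisons, Ntrk3 changes side, and the fitted Gfra3 points rest on 1 to 3 glial reads.

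Some sorting receptors of the sortilin family bind proneurotrophins with p75. Sorcs3, a member of that family, was at 41.1, 45.2 and 45.5 CPM in DRG, 84.1, 87.3 and 79.8 CPM in OPC, and 0.0564, 0.475 and 0.774 CPM in astrocytes. It was called higher in DRG than in astrocytes (log2 fold change 6.71 ± 0.65, edgeR adjusted p = 3.45e-05) and in OPC than in astrocytes (7.64 ± 0.68, edgeR adjusted p = 4.55e-05). Without Astrocytes replicate 3 these values were 7.41 and 8.34, and without Astrocytes replicate 1 and OPC replicate 3 together the second was 6.95. Sorl1, a sorting receptor related to sortilin, was at 89.9, 153 and 214 CPM in DRG, 8.81, 6.84 and 7.63 CPM in OPC, and 502, 677 and 738 CPM in astrocytes. OPC were lowest for Sorl1 against DRG (DRG against OPC 4.30 ± 0.34, edgeR adjusted p = 1.35e-05) and against astrocytes (OPC against astrocytes -6.36 ± 0.38, edgeR adjusted p = 6.98e-06). Sort1, sortilin itself, was lower in DRG than in astrocytes (-4.48 ± 0.47, edgeR adjusted p = 5.15e-05; -5.07 without DRG replicate 1). Its level of 0.155 to 0.440 CPM in DRG and 5.17 to 5.97 CPM in astrocytes covers only the reads particular to 1 of its 2 transcripts. Ntf3 and Ntf5, other neurotrophins, had too few counted reads to test. Ntf3 has 3 transcripts, so only reads particular to 1 of them were counted.

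Among other GDNF family ligands and receptors, 1 of 6 tested was higher and none lower in DRG against astrocytes (median log2 fold change -0.20), 2 were higher and 1 lower in DRG against OPC (0.38), and 3 were higher and 2 lower in OPC against astrocytes (1.30). Without single libraries, 1 was lower in DRG against astrocytes (Astrocytes replicate 1 or DRG replicate 1), 2 were lower in DRG against OPC (either of those, or OPC replicate 1 or 2), and in OPC against astrocytes 1 was higher (OPC replicate 3) or 1 lower (Astrocytes replicate 2 or 3, or OPC replicate 1 or 2). Over all genes tested, 27.4% were higher and 32.7% lower in DRG against astrocytes. The shares were 28.4 and 31.1% in DRG against OPC, and 26.3 and 25.5% in OPC against astrocytes. All-gene medians, here and for the lists below, were -0.13, -0.08 and 0.09. Counts of these lists are a description. Gfral, the GDF15 receptor that also acts with Ret, was at 2.91, 4.04 and 0.439 CPM in DRG, 0.0671, 0.0814 and 0.144 CPM in OPC, and 0 in all 3 astrocyte libraries. It was kept through DRG alone and was the only gene of this list called higher in DRG against astrocytes. Its call as higher in OPC against astrocytes (edgeR adjusted p = 0.039) was lost without any 1 OPC or astrocyte library (edgeR adjusted p = 0.0587 to 0.0985). Gdnf was at 0.914, 0.695 and 0.929 CPM in DRG, 0.0447, 0.122 and 0.0241 CPM in OPC, and 2.24, 0.475 and 1.16 CPM in astrocytes. It was called in DRG against OPC (log2 fold change 3.64 ± 0.73, edgeR adjusted p = 0.00217) and in OPC against astrocytes (-4.25 ± 0.73, edgeR adjusted p = 0.00133). Without OPC replicate 2 these values were 4.49 and -5.10, and without Astrocytes replicate 1 the second was -3.58. Nrtn, neurturin, averaged 0.158 ± 0.133 CPM in OPC and 1.16 ± 0.79 CPM in astrocytes (-2.85 ± 0.95, edgeR adjusted p = 0.0307), a call lost without any 1 of Astrocytes replicates 2 and 3 and OPC replicates 1 and 2 (edgeR adjusted p = 0.0716 to 0.0886). Sdc3, a heparan sulfate proteoglycan that binds GDNF, averaged 262 ± 71 CPM in DRG and 1117 ± 256 CPM in OPC (-2.09 ± 0.35, edgeR adjusted p = 0.000845). Artn, Pspn and Gfra4 were too low to test, and both Artn and Gfra4 have 4 transcripts each.

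The p75 partners gave 3 genes higher and 1 lower of 7 in DRG against astrocytes (median log2 fold change 0.51), 2 higher and 1 lower in DRG against OPC (-0.41), and 5 higher and 1 lower in OPC against astrocytes (1.00). Of all genes tested, 27.4, 28.4 and 26.3% were higher and 32.7, 31.1 and 25.5% lower in these comparisons. Rtn4r and Lingo1, which form the Nogo receptor complex with p75, had the largest rises in DRG against astrocytes. Rtn4r was at 43.0, 18.6 and 17.7 CPM in DRG, 7.51, 3.44 and 4.596 CPM in OPC, and 0.451, 0.427 and 0.608 CPM in astrocytes. It differed between DRG and astrocytes (5.73 ± 0.53, edgeR adjusted p = 2.51e-05), DRG and OPC (2.35 ± 0.44, edgeR adjusted p = 0.00155) and OPC and astrocytes (3.38 ± 0.48, edgeR adjusted p = 0.000471). Lingo1 was at 133 to 195 CPM in DRG, 99.6 to 116 CPM in OPC and 14.1 to 21.2 CPM in astrocytes. Its call in DRG against OPC (0.56 ± 0.21, edgeR adjusted p = 0.0423) was lost without DRG replicate 2 or 3 and without OPC replicate 1 or 2 (edgeR adjusted p = 0.0612 to 0.174), which leaves 1 partner higher there. It was lost as well with library size alone, with no low count filter and with the replicate block (edgeR adjusted p = 0.107, 0.063 and 0.0604). Nradd, a p75-related protein without a neurotrophin-binding part, was lower in DRG than in astrocytes (-2.00 ± 0.46, edgeR adjusted p = 0.00435) and in OPC than in astrocytes (-1.57 ± 0.45, edgeR adjusted p = 0.0162), the second call, the only lower one, being lost without Astrocytes replicate 1 and without OPC replicate 1 (edgeR adjusted p = 0.0515 in each). Traf6, a signalling adaptor, was lower in DRG than in OPC (-1.09 ± 0.28, edgeR adjusted p = 0.00736).

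Trk and Ret adaptors gave 12 higher and 3 lower of 23 tested in DRG against astrocytes (median log2 fold change 0.77), 10 higher and 3 lower in DRG against OPC (0.22; 6 higher without OPC replicate 2), and 7 higher and 2 lower in OPC against astrocytes (0.31; 1 lower when any of Astrocytes replicates 1 and 3, DRG replicates 2 and 3 and OPC replicate 2 was left out). Among all genes tested, 60.2, 59.5 and 51.8% were called in these comparisons. Those higher made up 27.4, 28.4 and 26.3%, and those lower 32.7, 31.1 and 25.5%. Shc2, a phosphotyrosine adaptor of the Shc family, was at 350, 268 and 308 CPM in DRG, 56.3, 35.9 and 44.2 CPM in OPC, and 0.959, 1.33 and 1.77 CPM in astrocytes. It was higher in DRG than in astrocytes (7.84 ± 0.33, edgeR adjusted p = 6.81e-07) and in OPC than in astrocytes (5.08 ± 0.30, edgeR adjusted p = 6.9e-06). Dok4, an adaptor that binds Ret, was at 621, 705 and 828 CPM in DRG, 15.9 to 18.2 CPM in OPC and 5.44 to 17.4 CPM in astrocytes. It was called in both DRG comparisons (5.81 ± 0.44 against astrocytes and 5.42 ± 0.43 against OPC, edgeR adjusted p = 8.92e-06 and 1.38e-05). Shc4, another Shc adaptor, averaged 137 ± 75 CPM in OPC and 4.07 ± 0.87 CPM in astrocytes (5.08 ± 0.42, edgeR adjusted p = 3.19e-05). Shc1, with 2 transcripts, averaged 51.8 ± 19.6 CPM in DRG and 1.96 ± 0.75 CPM in OPC (4.72 ± 0.47, edgeR adjusted p = 4.07e-05; 5.32 without OPC replicate 3). Rapgef1, with 3 transcripts and kept through DRG alone, was at 5.22 to 6.16 CPM in DRG, 0.157 to 0.224 CPM in OPC and 0.0238 to 0.0376 CPM in astrocytes.

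Feedback inhibitors of receptor tyrosine kinase signalling gave 3 higher and 4 lower of 10 tested in DRG against astrocytes (median log2 fold change -0.24; 1 higher without Astrocytes replicate 3), 1 higher and 4 lower in DRG against OPC (-0.92; none higher without DRG replicate 2 or 3 or OPC replicate 1 or 2), and 4 higher and none lower in OPC against astrocytes (0.76). For all genes tested the shares were 27.4, 28.4 and 26.3% higher and 32.7, 31.1 and 25.5% lower in these comparisons. Spry1, a Sprouty inhibitor of the Ras pathway, was at 4.13, 2.30 and 1.76 CPM in DRG, 163, 190 and 204 CPM in OPC, and 6.64, 53.1 and 32.8 CPM in astrocytes. Its log2 fold change was -6.10 ± 0.75 for DRG against OPC (edgeR adjusted p = 0.000131) and -3.51 ± 0.67 for DRG against astrocytes (edgeR adjusted p = 0.00161; -2.87 without Astrocytes replicate 2). OPC exceeded astrocytes in Spry1, Spry2 and Spry4, by 2.59 ± 0.63, 1.84 ± 0.26 and 2.84 ± 0.52 on the log2 scale (edgeR adjusted p = 0.00762, 0.000442 and 0.00185). Dusp6, a phosphatase that acts on ERK, averaged 30.7 ± 6.4 CPM in DRG, 190 ± 38 CPM in OPC and 150 ± 35 CPM in astrocytes. Dusp6 and Dusp4 were lower in DRG than in either glial culture.

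Genes of proneurotrophin processing gave 2 higher and 4 lower of 9 tested in DRG against astrocytes (median log2 fold change -1.13; 2 lower without DRG replicate 3), 3 higher and 3 lower in DRG against OPC (0.65; 1 lower without DRG replicate 3 or OPC replicate 2), and 1 higher and 4 lower in OPC against astrocytes (-0.94). The 1 higher gene was Plg, whose call (3.50 ± 1.08, edgeR adjusted p = 0.0228) was lost without Astrocytes replicate 1 or 2, without OPC replicate 2 and without Astrocytes replicate 1 and OPC replicate 3 together (edgeR adjusted p = 0.0579 to 0.0866). All genes tested gave 27.4% higher and 32.7% lower in DRG against astrocytes. They gave 28.4 and 31.1% in DRG against OPC, and 26.3 and 25.5% in OPC against astrocytes. Pcsk1, a convertase of the regulated secretory pathway, was at 83.8, 92.8 and 77.7 CPM in DRG and at 0.285 CPM or less in every glial library. Pcsk6, a convertase of the constitutive pathway, ran the other way, with 0.0495 ± 0.0451 CPM in DRG, 3.22 ± 0.23 CPM in OPC and 6.16 ± 1.51 CPM in astrocytes. These Pcsk6 levels cover only the reads particular to 1 of its 2 transcripts. Pcsk1 was kept through DRG alone, so a difference was built into its selection, and its log2 fold change of 10.20 for DRG against astrocytes is a description. That of Pcsk6 was -7.01 ± 0.56 (edgeR adjusted p = 1.24e-05), or -7.88 without DRG replicate 1. Cpe, carboxypeptidase E, a sorting and trimming enzyme of secretory granules, averaged 431 ± 107 CPM in OPC and 3066 ± 1563 CPM in astrocytes (-2.83 ± 0.37). Plg and Mmp3, extracellular proteases that can cleave proneurotrophins, were at 2.22 CPM or less in every library.

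The genes most like each of the 7 were those with the smallest root mean square difference in centred log2 CPM over the 9 libraries, which share the same contrast of 3 cultures. Ntrk2 was nearest to Slc1a3, the glial glutamate transporter (difference 0.57), then Nr2e1 and Sox1, transcription factors of neural stem cells. Ngfr was nearest to Isl1, a homeobox factor of sensory neurons (0.69), then Trappc3l and Ptgir. Ret was nearest to Nfasc, neurofascin (0.41), then Clta and Rimkla, and Bdnf to P2rx5, an ATP-gated channel (0.60), then Folh1 and Gldn. Ntrk3 was nearest to Fam222a (0.33), then Tmem178 and Sh3gl3. Gfra2 was nearest to Fancl (0.25), then Mcm4 and Celf1, and Gfra3 to 4930447C04Rik (0.63), then Insrr and Uts2b. Nfasc, Clta, Folh1, Sh3gl3, Fancl and Celf1 have several transcripts, so only reads particular to 1 of them were counted.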

How the data were processed

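The authors deposited 1 table of unnormalized counts for each library, with 1 row per RefSeq transcript and 5 further rows of unassigned reads, which were left out of library sizes and tests. Reads were aligned with TopHat2 and counted with HTSeq on mm10, per the submitters' processing notes; versions, RefSeq release and strand setting are not given in the sources used here. Libraries were made with a stranded mRNA kit, per the labels' protocols. HTSeq sets aside reads shared by transcripts, so a gene with several transcripts is measured by reads particular to 1 of them.

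RefSeq's table for GRCm38.p6 gave symbols to 32417 of 33787 accessions and GENCODE vM21 to 187 more, while 1183 kept their own identifier. Counts were summed by gene. All 9 libraries were fitted in 1 edgeR 4.0.16 model (R 4.3.3) with TMM factors and filterByExpr (minimum count 10), which kept 14850 genes, and tested by the quasi-likelihood F-test with 6 residual degrees of freedom. P-values were adjusted by Benjamini-Hochberg over all genes kept, with a threshold of 0.05. SE is the log2 fold change over the square root of F, not a fitted error. Accessions (16010 kept) were tested likewise, and isoform usage by diffSpliceDGE over 1068 genes. The tests of genes and of isoform usage were checked on simulated counts. No depth correction, batch term or pairing was used, since the labels give none. Levels are CPM with TMM factors, as mean ± SD.

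The 8 genes, the pathway and marker lists and the pair of libraries left out together were chosen with earlier results of these data known. Of each pathway list at most 3 called genes with the largest fold are named per comparison, and the 3 most similar genes for each gene tested. Some genes that this rule selects are not reported here. Alternatives were other scaling (DESeq2 1.42.0 size factors, library size alone), the DESeq2 Wald test, other filters, fewer libraries, the largest accession and a replicate block. Applying them to the pathway lists was added after seeing the data. Intervals cover counting error only, since reads carry no molecular identifiers.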

Additional observations from a re-analysis of the deposited data

How the results depend on the processing

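Of 18 called fold changes of the 7 genes, 14 stayed called in the same direction under each of 18 alternatives. These include both DRG comparisons of Gfra3, which was kept through DRG alone. The other 4 were Ntrk3 and Bdnf in DRG against astrocytes and Ntrk2 and Bdnf in OPC against astrocytes; that of Bdnf in OPC against astrocytes was lost only with the accession with the most reads, exon I (log2 fold change -0.25, edgeR adjusted p = 0.90), because the alternative leaves out exon VI. Isoform usage in DRG against astrocytes was called for 2 genes, Ntrk3 and Bdnf, and for 1 to 2 when a library was left out. Of 1068 genes, 25.6% were called there. For Bdnf most forms tested were kept through DRG alone, so a difference was built into that call. Deviations of same-numbered libraries from their culture means had correlations of -0.04 to 0.13. Those of differently numbered libraries ran from -0.13 to 0.08. With 3 libraries per culture these cannot tell whether the numbers pair the libraries. The fit with the replicate block called 1 gene in isoform usage of OPC against astrocytes, Bdnf (edgeR adjusted p = 0.0321), against 0 without it. OPC had 15 Bdnf reads in all, and without the block 13.9% of 1068 genes were called there. With the block 7 genes were called in both DRG comparisons and 4 in OPC against astrocytes, as without it. Without the block, 60.2, 59.5 and 51.8% of all genes tested were called in these comparisons.

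Directions turned only in OPC against astrocytes and only for values not called. Without Astrocytes 1 and OPC 3 together, Gfra3 was at -0.33 (-0.32 as an accession). With single libraries left out, Ngfr ran from -2.46 to 0.43 (the same as an accession), Bdnf exon IV from -3.12 to 1.81 and Bdnf exon I from -0.90 to 4.23, each highest without Astrocytes replicate 2. With DESeq2 size factors the median of all genes moved by 0.07, 0.17 and -0.10 in DRG against astrocytes, DRG against OPC and OPC against astrocytes, and with library size alone by -0.26, -0.15 and -0.11. Of 52 pathway values computed, 47 stayed called under every alternative and none turned. At these depths glial Gfra3, OPC Bdnf and DRG Ntrk2 kinase reads were too few for comparisons among forms or between the glia.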
